A study of Mus musculus with 12 samples.

Results

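Myc, Max and their relatives form a network of transcription factors, and the Hmga genes encode architectural chromatin proteins. The 10 genes described here were Myc, Mycn, Mycl, Max, Mxd1, Mxd4, Mxi1, Mnt, Hmga1 and Hmga2. They were taken by symbol from a table of 55487 genes, and no symbol was repeated. RNA-seq compared 3T3-L1 preadipocytes, mouse fibroblasts that become fat cells once induced with hormones, as cells with a control hairpin (shScram) and cells with a hairpin against Fto (shFto), which encodes an RNA demethylase, at 3 stages. The stages were preadipocytes (Pre), mitotic clonal expansion (MCE, the round of division that follows induction) and differentiation (Diff). Each of the 6 groups had 2 libraries, 12 in all. Nothing in the labels says that the libraries of a group came from separate cultures, so the p-values measure the spread between these libraries, which may be technical. Levels are given in TPM, in which every library has the same total and transcript length is corrected for, so levels of different genes can be compared. TPM keeps no record of sequencing depth, so the depth is unknown.

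Cells of both lines carried a lentiviral hairpin and had been selected with puromycin. The shScram Pre and shFto Pre groups were preadipocytes that had not been induced. The MCE and Diff groups of both lines had received MDI, a cocktail of IBMX, dexamethasone and insulin, and the Diff groups had then been kept in insulin medium. Which of the Fto hairpins the sequenced cells carried, and whether each line is 1 clone, is not given in the sources used here. Fto itself was between 52.7 and 73.5 TPM in the 6 shScram libraries and between 5.51 and 7.47 TPM in the 6 shFto libraries. For shScram Diff replicate 1 the title and the treatment entry disagree, the latter naming the knockdown, and the group was taken from the title. Its Fto level was 73.5 TPM, near the 70.8 TPM of its replicate.

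The library of shScram Pre replicate 1 stood apart from the others. Across genes, which are not independent replicates, log2(TPM + 1) correlated with r = 0.939 between the shScram Pre libraries and with r from 0.990 to 0.993 within the other groups. Its difference from replicate 2 followed the GC content of the transcripts, with a Spearman rho of -0.688 across 15928 genes. Between the replicates of the other groups, rho ranged from -0.204 in shScram MCE to 0.356 in shScram Diff. Hmga1 and Mnt have the highest GC contents of the 10 genes, 61.4% and 59.5%, against a median of 49.4% over the genes tested. Many of the results are therefore also given without this library.

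The 3T3-L1 identity was checked against markers. The 9 fibroblast markers summed to between 9237 and 14411 TPM over the 12 libraries. Vim had the highest mean of them, and Col1a2 or Col3a1 was above it in some libraries, such as shFto Diff replicate 1, with Col3a1 at 3667 and Vim at 2094 TPM. The 9 adipocyte markers summed to 1597 and 1583 TPM in shScram Diff but to 483 and 447 TPM in shFto Diff. The most abundant was Fabp4 in shScram Diff, at 876 and 836 TPM, and Lpl in shFto Diff, at 282 and 269 TPM, and Adipoq was listed at 0 in every Pre library. At the Diff stage 7 of these 9 markers were lower in shFto cells by the limma test described below, 77.8% beside 9.31% of all genes. The macrophage markers summed to at most 11.0 TPM, the endothelial to at most 1.24 TPM and the epithelial to at most 1.12 TPM, with Adgre1 listed at 0 in every library. In bulk RNA, fewer cells of a type and less RNA per cell cannot be told apart.

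Myc proteins bind DNA as dimers with Max and activate genes of growth and ribosome production. Mxd1, Mxd4, Mxi1 and Mnt compete for Max, bind the same E-box sequence and recruit the Sin3 and histone deacetylase corepressors. Hmga proteins bind AT-rich DNA through AT-hooks, and Hmga2, a gene of embryonic and mesenchymal progenitor cells that is needed for normal fat tissue in mice, is the best known target of the let-7 microRNAs.

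The E-box, CACGTG, reads the same on both strands. Of the 10 genes, 9 had promoter windows in the RefSeq table (GRCm38.p6, 250 bases before to 50 after a start), 12 windows in all. It occurred in 3 of these 12 windows, 1 each of Max, Mnt and Mxd4, and in 7.15% of all 32851 windows. Those 3 matches are shown because they lie in genes of the network itself, with the E-box in capitals. They stand at chr12:76962234-76962263 (minus strand), chr11:74830789-74830818 (plus strand) and chr5:34187912-34187941 (minus strand). A match is a description and not a binding site.
Max: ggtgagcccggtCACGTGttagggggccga
Mnt: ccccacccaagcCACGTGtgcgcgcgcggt
Mxd4: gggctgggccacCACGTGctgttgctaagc

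The let-7 family of the RefSeq table holds 9 mature miRNAs with the same seed, which is shown in capitals in let-7a-5p. A seed match, CTACCTC on the sense strand, occurred 4 times in the 3' UTR of Hmga2 in GENCODE M21. Of 21877 protein-coding genes searched, counted whether or not a 3' UTR was annotated, 8.67% had a match and 12 had at least 4, or 0.0549%. These shares are not matched for the length of the 3' UTR. Hmga1 and Mxd1 had 1 match each and the other 7 genes had none, while Lin28b and Igf2bp1, from a list described further on, had 4 each. The Hmga2 matches, on the minus strand of GRCm38, span chr10:120364224-120364246, chr10:120362987-120363009, chr10:120362549-120362571 and chr10:120361691-120361713. The let-7 miRNAs were not analysed here.
mmu-let-7a-5p: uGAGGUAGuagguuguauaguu
Hmga2 site 1: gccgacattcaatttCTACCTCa
Hmga2 site 2: ccccactcctcaataCTACCTCt
Hmga2 site 3: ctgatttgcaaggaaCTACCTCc
Hmga2 site 4: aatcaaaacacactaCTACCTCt

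Hmga2 (ENSMUSG00000056758, chromosome 10, 120361275 to 120476469 of GRCm38) fell from stage to stage in shScram cells, was higher in shFto cells at MCE and Diff, and differed most at Diff. In shScram cells it was at 284 and 234 TPM in preadipocytes, 182 and 183 TPM at MCE, and 88.7 and 90.7 TPM at Diff. In shFto cells it was at 276 and 342 TPM in preadipocytes, 275 and 294 TPM at MCE, and 332 and 347 TPM at Diff. The lines overlapped in preadipocytes and were apart at MCE and Diff, where both shFto libraries were higher, and the shFto libraries of all stages lay within 275 to 347 TPM. The order of the means was shFto Diff, shFto Pre, shFto MCE, shScram Pre, shScram MCE and shScram Diff, and the first 4 groups overlapped with their neighbours.

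Differences between the lines at each stage were tested by limma on log2(TPM + 1) over 15968 genes, with a Benjamini-Hochberg adjusted p under 0.05 as the threshold. These log2 fold changes understate the change of genes with low TPM. At Diff, Hmga2 was 3.78-fold higher in shFto cells, with a log2 fold change of 1.91 ± 0.14 (SE, n = 2 libraries per group, limma adjusted p = 3.4e-05). At MCE it was 1.56-fold higher, 0.64 ± 0.14 on the log2 scale (limma adjusted p = 0.0137). In preadipocytes its log2 fold change was 0.25 ± 0.14 (limma adjusted p = 0.187), 0.39 (limma adjusted p = 0.0269) without shScram Pre replicate 1 and 0.52 (limma adjusted p = 0.00637) with a correction for GC content that was chosen after seeing the data. The MCE call was lost in the 4 fits that left out an MCE library, where the adjusted p reached 0.11, and with quantile normalization (limma adjusted p = 0.0527), and the Diff call held in all 12 fits with a library left out.

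In the control line, Hmga2 decreased by 0.49 ± 0.14 on the log2 scale from Pre to MCE (limma adjusted p = 0.0215) and decreased by 1.02 ± 0.14 from MCE to Diff (limma adjusted p = 0.00132). In shFto cells its log2 changes over these steps were -0.11 (limma adjusted p = 0.61) and 0.25 (limma adjusted p = 0.223). The difference between the lines in the MCE to Diff step was itself tested and was 1.27 ± 0.20 (limma adjusted p = 0.0131). The Pre to MCE call in shScram cells was lost in 2 of 12 fits with a library left out, with adjusted p up to 0.0929. It was also lost with the GC correction (-0.29, limma adjusted p = 0.0504), with median-ratio scaling (-0.30, limma adjusted p = 0.16) and in a fit of the compared groups alone (limma adjusted p = 0.221). The MCE to Diff call held in all 12 fits with a library left out and under the 10 other alternatives. The call on the difference was lost in the 8 fits that left out an MCE or Diff library, with log2 values of 1.22 to 1.32 and adjusted p up to 0.0826. Hmga2 overlaps 1700006J14Rik and 9230105E05Rik on the opposite strand, and whether the authors counted by strand is not given in the sources used here.

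**Figure D1:**
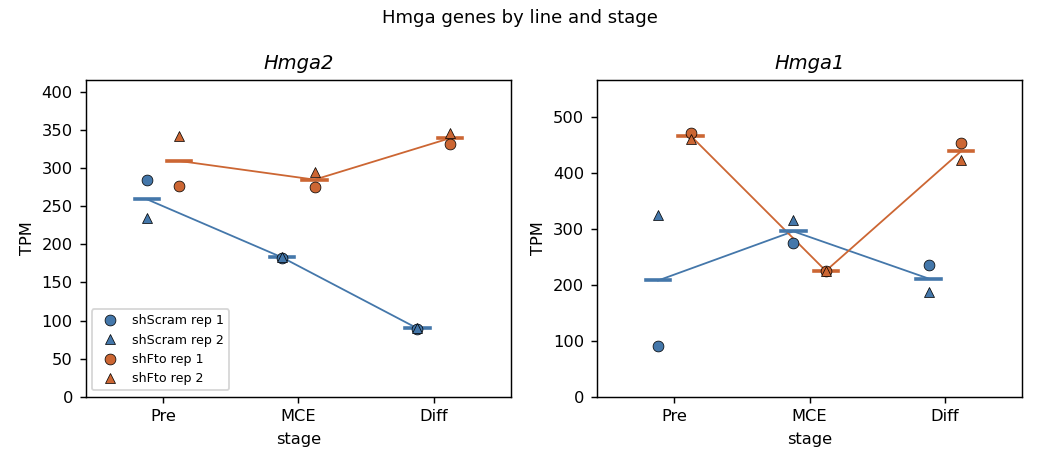
TPM of Hmga2 and Hmga1 (y axis, from 0) at the Pre, MCE and Diff stages (x axis) in shScram and shFto cells. Circles are replicate 1, triangles replicate 2 and short bars the group means, joined by lines. Hmga2 falls to 88.7 and 90.7 TPM in shScram Diff and is at 332 and 347 TPM in shFto Diff, and the Hmga1 point at 90.8 TPM is shScram Pre replicate 1.

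Hmga1 (ENSMUSG00000046711, chromosome 17, 27556497 to 27563674) encodes the other AT-hook protein of the family and did not follow Hmga2. In shScram cells it was at 90.8 and 325 TPM in preadipocytes, 275 and 316 TPM at MCE, and 235 and 188 TPM at Diff. In shFto cells it was at 472 and 461 TPM in preadipocytes, 224 and 226 TPM at MCE, and 454 and 424 TPM at Diff. The shFto libraries were higher at Pre and Diff and lower at MCE, without overlap at any stage, and the shScram Pre libraries differed from each other by more than those of any other group.

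The log2 fold change of Hmga1 in preadipocytes was 1.44 ± 0.45 (limma adjusted p = 0.0447), and 0.52 ± 0.13 (limma adjusted p = 0.0127) without shScram Pre replicate 1. With the GC correction it was 0.61 (limma adjusted p = 0.0501), and the call held in 5 of 10 alternatives that left out no single library. At MCE it was -0.39 (limma adjusted p = 0.638) and at Diff 1.06 ± 0.45 (limma adjusted p = 0.138). Without that library, which enters the spread of a gene at all stages, these became calls, with adjusted p of 0.0127 at MCE and 2.54e-05 at Diff, and with the GC correction the Diff value was a call of 0.78 (limma adjusted p = 0.0176). The difference between the lines from MCE to Diff was 1.45 (limma adjusted p = 0.332 with all libraries, 0.000223 without it).

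Hmga1 is uncertain as a single locus, because Hmga1b (ENSMUSG00000078249), a near-identical copy on chromosome 11, shared 1599 of 1602 aligned transcript bases, or 99.8%. Hmga1b took between 8.34% and 16.9% of the summed TPM of both, and the highest share was in shScram Pre replicate 1. The sum of both was 526 and 513 TPM in shFto Pre, 246 TPM in each shFto MCE library, and 503 and 464 TPM in shFto Diff, so the sum had the same low point. Hmga1 also overlaps AI413582 and Gm49774 on the opposite strand.

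Max (ENSMUSG00000059436, chromosome 12, 76937269 to 76962201), the shared dimer partner of the network, was higher in shFto cells after induction. It was at 79.4 and 68.7 TPM in shScram preadipocytes, 42.7 and 48.3 TPM at MCE, and 47.3 and 51.2 TPM at Diff. The shFto libraries held 88.1 and 90.3 TPM in preadipocytes, 67.5 and 67.5 TPM at MCE, and 74.5 and 75.1 TPM at Diff. Both shFto libraries lay above both shScram libraries at each stage.

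The log2 fold change of Max was 0.56 ± 0.12 at MCE (limma adjusted p = 0.0109) and 0.59 ± 0.12 at Diff (limma adjusted p = 0.00728). In preadipocytes it was 0.27 ± 0.12 (limma adjusted p = 0.109), and 0.37 (limma adjusted p = 0.0142) without shScram Pre replicate 1. The MCE and Diff calls were each lost in 3 of 12 fits with a library left out, with adjusted p up to 0.0894 and 0.0627. The MCE call was also lost with median-ratio scaling and with quantile normalization, which kept the direction. Max fell from Pre to MCE in both lines, by 0.69 in shScram and by 0.40 in shFto cells on the log2 scale (limma adjusted p = 0.0022 and 0.0323), where the median of all genes moved by -0.17 and -0.18. The shFto call was lost in 8 of 12 fits with a library left out, with adjusted p up to 0.146, and held in 6 of 10 other alternatives. With median-ratio scaling it was -0.19 (limma adjusted p = 0.382). The shScram call held in all 12 fits and in 9 of the 10, the exception being the fit of the compared groups alone (limma adjusted p = 0.141).

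Of the genes that encode repressors, Mxi1 (ENSMUSG00000025025, chromosome 19, 53310518 to 53375810) differed most. In shScram cells it was at 10.5 and 9.40 TPM in preadipocytes, 17.6 and 18.4 TPM at MCE, and 16.2 and 17.2 TPM at Diff. The shFto libraries held 10.2 and 12.5 TPM in preadipocytes, 36.0 and 38.2 TPM at MCE, and 41.9 and 44.2 TPM at Diff. The lines overlapped before induction and were apart after it.

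Mxi1 was 2.06-fold higher in shFto cells at MCE, a log2 fold change of 1.00 ± 0.13 (limma adjusted p = 0.00117), and 2.58-fold higher at Diff, 1.32 ± 0.13 (limma adjusted p = 0.000199). Both calls held in all 12 fits with a library left out. In preadipocytes its log2 fold change was 0.17 ± 0.13 (limma adjusted p = 0.335). With the GC correction that value was a call, at 0.41 (limma adjusted p = 0.027). Mxi1 rose from Pre to MCE by 0.80 in shScram and by 1.63 in shFto cells on the log2 scale. The difference between these steps was 0.83 ± 0.19 (limma adjusted p = 0.0407), and that call was lost in 10 of 12 fits with a library left out, with adjusted p up to 0.167. It held in 5 of 10 other alternatives, and with the GC correction it was 0.61 (limma adjusted p = 0.0526).

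Mxd1 (ENSMUSG00000001156, chromosome 6, 86647042 to 86669161), which is known for its rise in cells that leave the cell cycle, showed a like order at lower levels. It was at 5.42 and 6.11 TPM in shScram preadipocytes, 7.30 and 7.09 TPM at MCE, and 7.93 and 8.68 TPM at Diff. The shFto libraries held 6.58 and 6.84 TPM in preadipocytes, 13.4 and 14.4 TPM at MCE, and 15.0 and 15.2 TPM at Diff. No neighbouring groups in the order of its 6 means overlapped, and shFto MCE and shFto Diff were the highest. Its log2 fold change was 0.86 ± 0.13 at MCE (limma adjusted p = 0.00214) and 0.79 ± 0.13 at Diff (limma adjusted p = 0.0027), and both calls held in all 12 fits with a library left out. In preadipocytes it was 0.19 (limma adjusted p = 0.271).

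Mxd4 (ENSMUSG00000037235, chromosome 5, 34173883 to 34187720), another Max-binding repressor, went the other way. In shScram cells it was at 57.7 and 126 TPM in preadipocytes, 135 and 128 TPM at MCE, and 192 and 172 TPM at Diff. In shFto cells it was at 79.3 and 77.2 TPM in preadipocytes, 70.2 and 72.1 TPM at MCE, and 95.5 and 96.0 TPM at Diff. The lines overlapped in preadipocytes, where the shScram libraries were far apart, and the shFto libraries were lower at MCE and Diff.

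The log2 fold change of Mxd4 was -0.88 ± 0.28 at MCE (limma adjusted p = 0.0663) and -0.92 ± 0.28 at Diff (limma adjusted p = 0.0498). The Diff call lay at the threshold, was lost in 10 of 12 fits with a library left out and held in 5 of 10 other alternatives. Of the 12 fits it held in the 2 that left out one or the other shScram Pre library, with adjusted p of 4.33e-06 without replicate 1. Without that library the MCE value became a call (limma adjusted p = 6.3e-06) and the preadipocyte value went from -0.12 (limma adjusted p = 0.755) to -0.68 (limma adjusted p = 0.000334). Leaving out shScram Pre replicate 2 instead gave 0.43 (limma adjusted p = 0.00122), so either shScram Pre library alone gave a call, in opposite directions, and no direction is read for Mxd4 in preadipocytes. Mxd4 overlaps Gm42846 on the opposite strand.

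Mnt (ENSMUSG00000000282, chromosome 11, 74830920 to 74845725) encodes the broadly expressed repressor that opposes Myc. It was at 9.80 and 29.4 TPM in shScram preadipocytes, 16.9 and 19.0 TPM at MCE, and 22.5 and 19.9 TPM at Diff. In shFto cells it was at 26.1 and 28.2 TPM in preadipocytes, 23.8 and 25.7 TPM at MCE, and 27.4 and 28.9 TPM at Diff. The lines overlapped in preadipocytes, where the shScram libraries were farthest apart. Both shFto libraries lay above both shScram libraries at MCE and Diff, with log2 fold changes of 0.44 and 0.40 that did not pass the test (limma adjusted p = 0.494 and 0.512). Without shScram Pre replicate 1 they did (limma adjusted p = 0.005 and 0.0085), and with the GC correction they did not (limma adjusted p = 0.201 and 0.486).

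Myc (ENSMUSG00000022346, chromosome 15, 61985391 to 61990374) differed little between the lines. It was at 35.4 and 53.3 TPM in shScram preadipocytes, 61.3 and 63.6 TPM at MCE, and 46.3 and 42.9 TPM at Diff. The shFto libraries held 61.1 and 65.5 TPM in preadipocytes, 55.5 and 52.9 TPM at MCE, and 46.2 and 50.9 TPM at Diff. The shFto libraries were higher in preadipocytes, lower at MCE and overlapped with shScram at Diff. The preadipocyte log2 fold change of 0.53 ± 0.17 (limma adjusted p = 0.0497) lay at the threshold, was 0.24 (limma adjusted p = 0.0831) without shScram Pre replicate 1, and kept its call in 1 of 12 fits with a library left out and in 4 of 10 other alternatives. The values were -0.20 at MCE (limma adjusted p = 0.505) and 0.12 at Diff (limma adjusted p = 0.685).

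Mycn and Mycl, the relatives of Myc in embryonic and neural tissue and in lung, were under the filter of 1 TPM in at least 2 libraries and were not tested. Mycn was listed at 0 in all libraries but shFto Pre, where it was at 0.025 and 0.042 TPM. Mycl was highest in shFto Pre, at 0.54 and 0.97 TPM, and at most 0.17 TPM elsewhere. Myc was thus the abundant Myc family gene in every library.

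**Figure D2:**
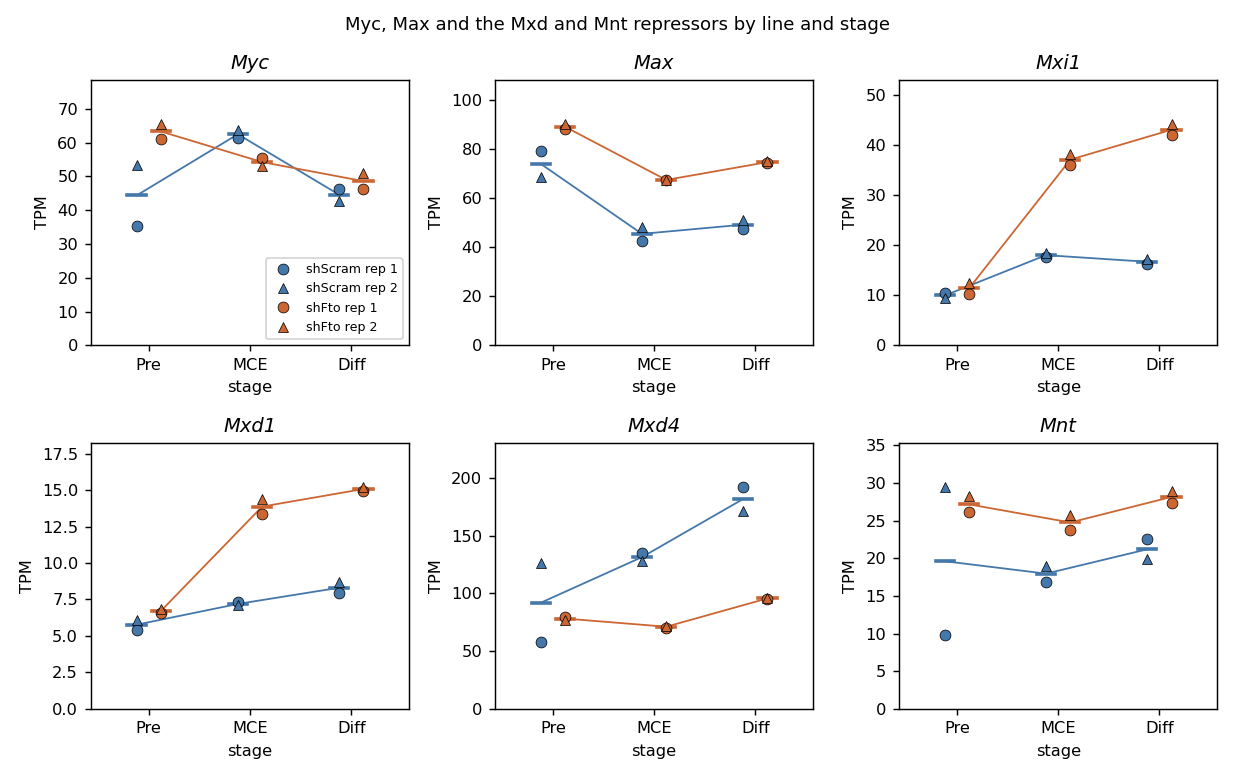
TPM of Myc, Max, Mxi1, Mxd1, Mxd4 and Mnt (y axes, from 0, each on its own scale) at the Pre, MCE and Diff stages (x axes) in shScram and shFto cells. Circles are replicate 1, triangles replicate 2 and short bars the group means, joined by lines. Mxi1 and Mxd1 separate from MCE on with shFto higher, Mxd4 with shFto lower, and shScram Pre replicate 1 is the low point of Mxd4 (57.7 TPM) and Mnt (9.80 TPM).

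Of the 10 genes, 8 passed the filter, and their calls are set beside those of all 15968 genes. In preadipocytes 2 were higher in shFto cells, Myc and Hmga1 (15.9% of all genes), and 0 lower (12.3% of all genes; 0 of the 8 at an unadjusted p under 0.05 by limma). At MCE 4 were higher, Max, Mxd1, Mxi1 and Hmga2 (10.5% of all genes), and 0 lower (7.26% of all genes; 1 at an unadjusted p under 0.05). At Diff the same 4 were higher (11.9% of all genes) and 1 lower, Mxd4 (9.31% of all genes). The median log2 fold change of the 8 was 0.26, 0.50 and 0.69 at the successive stages, against 0.08, 0.05 and 0.03 over all genes. The 3 comparisons used different libraries but 1 estimate of the spread. The 10 genes, and the lists described further on, were chosen with earlier results of these data known. Setting them beside all genes is therefore a description and not a test for an excess.

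Without shScram Pre replicate 1 the preadipocyte calls changed most. Max, Hmga1 and Hmga2 were then higher and Mxd4 lower, and Myc was no call, in a fit where 1 shScram Pre library stood for its group and was assumed to vary like the others. In that fit 16.1% of all genes were higher and 12.9% lower. The preadipocyte calls were 0 in 10 of 12 fits with a library left out. At MCE 5 were then higher and 2 lower (25.2% and 15.8% of all genes), and at Diff 6 were higher and 1 lower (25.3% and 20.4% of all genes).

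**Figure D3:**
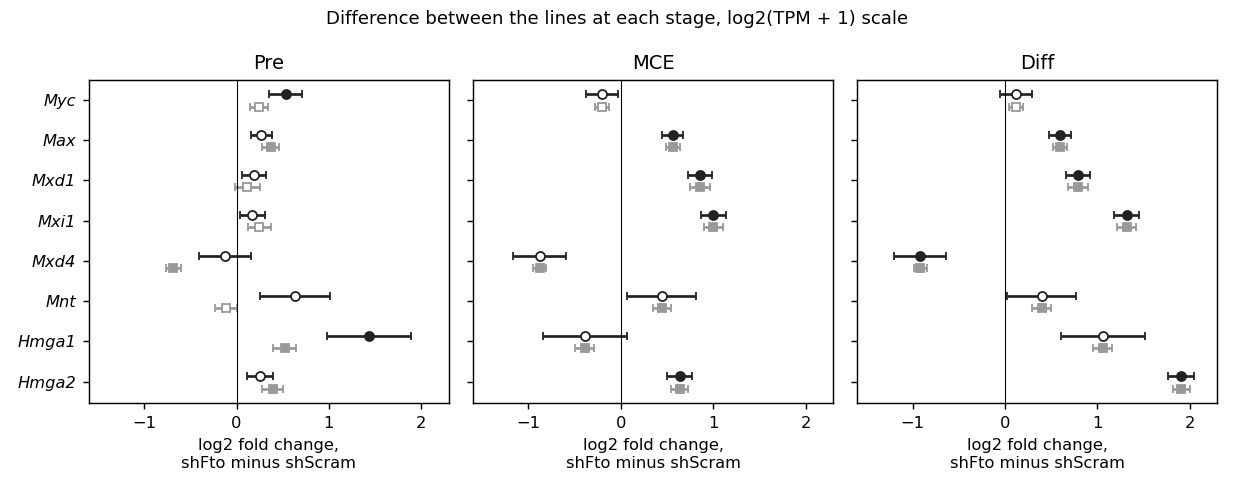
Log2 fold change between shFto and shScram cells (x axis, log2(TPM + 1) scale) of 8 genes (y axis) at the Pre, MCE and Diff stages, with SE bars. Black circles use all 12 libraries and grey squares leave out shScram Pre replicate 1, and filled symbols have a limma adjusted p under 0.05. Hmga2 at Diff (1.91) has the highest value drawn, and Hmga1, Mnt and Mxd4 have the widest bars with all libraries.

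Stage steps were read beside the shift of all genes, whose median log2 change was -0.17 from Pre to MCE and 0.23 from MCE to Diff in shScram cells, and -0.18 and 0.17 in shFto cells. From Pre to MCE in shScram cells 2 of the 8 rose, Myc and Mxi1 (12.2% of all genes), and 2 fell, Max and Hmga2 (26.9% of all genes). In shFto cells 2 rose, Mxd1 and Mxi1 (8.8% of all genes), and 1 fell, Max (19.9% of all genes). Relative to the median of all genes, the changes of Max were -0.52 and -0.21 and those of Mxi1 were 0.96 and 1.81 in the shScram and shFto lines. The Myc step of 0.51 in shScram cells (limma adjusted p = 0.044) was 0.23 (limma adjusted p = 0.0757) without shScram Pre replicate 1. In that fit 1 rose in shScram cells, Mxi1, and 3 fell, Max, Mnt and Hmga2 (12.9% and 35.3% of all genes). The Mnt step went from 0.06 (limma adjusted p = 0.91) to -0.68 (limma adjusted p = 0.00118), and to 0.81 (limma adjusted p = 0.000216) when replicate 2 was left out instead. For shFto cells, the fit without shScram Pre replicate 1 had 2 that rose, Mxd1 and Mxi1, and 3 that fell, Myc, Max and Hmga1 (15.8% and 35.3% of all genes). Hmga1 had a shFto step of -1.05, with an adjusted p of 0.121 with all libraries, 1.69e-05 without that library and 0.00442 with the GC correction (limma), and Myc one of -0.22, with 0.4 and 0.0386.

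From MCE to Diff in shScram cells 0 rose (20.0% of all genes; 0 at an unadjusted p under 0.05 by limma) and 1 fell, Hmga2 (5.22% of all genes), with a log2 change of -1.25 relative to the median of all genes. In shFto cells 0 rose (20.2% of all genes) and 0 fell (6.48% of all genes), with 0 at an unadjusted p under 0.05 by limma in either direction. Without shScram Pre replicate 1, Mxd4, Hmga1 and Hmga2 rose over that step in shFto cells, with adjusted p of 0.000641, 4.7e-05 and 0.0429, in a fit where 34.6% of all genes rose. In shScram cells Mxd4 then rose and Myc, Hmga1 and Hmga2 fell over that step, where 38.3% of all genes rose and 13.7% fell.

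The steps of the lines were also compared with each other. From Pre to MCE 1 of the 8 genes had a higher step in shFto cells, Mxi1 (2.52% of all genes), and 0 a lower one (2.59% of all genes; 2 at an unadjusted p under 0.05 by limma). From MCE to Diff 1 had a higher step in shFto cells, Hmga2 (1.47% of all genes), and 0 a lower one (1.01% of all genes; 0 at an unadjusted p under 0.05). Without shScram Pre replicate 1 the first step gave 3 higher, Mxd1, Mxi1 and Mnt, and 2 lower, Myc and Hmga1, in a fit where 8.17% of all genes were higher and 5.94% lower. Mxd1 went from 0.67 (limma adjusted p = 0.0717) to 0.74 (limma adjusted p = 0.0181), and Mnt changed direction, from -0.19 to 0.56 (limma adjusted p = 0.0417). Hmga1 went from -1.82 (limma adjusted p = 0.145) to -0.91 (limma adjusted p = 0.00536) and Myc from -0.73 (limma adjusted p = 0.132) to -0.44 (limma adjusted p = 0.0395). With the GC correction Mxd1 was a call at 0.68 (limma adjusted p = 0.0322) and Hmga1 at -1.15 (limma adjusted p = 0.0394), and Myc and Mnt were not. In the second step Hmga1 joined Hmga2 without that library, where 8.16% of all genes were higher and 8.94% lower.

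The make-up of the Max partners among the 10 genes was described by the share of each in the summed TPM of Myc, Mycn, Mycl, Mxd1, Mxd4, Mxi1 and Mnt. This sum leaves out Mxd3 and Mga, which also encode Max partners. Mxd4 held the largest share in every library, 54.2% to 67.3% in the shScram MCE and Diff libraries and 35.3% to 42.3% in those of shFto. Mxi1 held 5.67% to 7.80% in these shScram libraries and 18.1% to 18.8% in those of shFto. The Myc share was lowest at Diff in both lines, at 16.2% and 16.4% in shScram and at 20.5% and 21.6% in shFto. The Max level was 0.166 to 0.204 of the summed partner level in the shScram MCE and Diff libraries and 0.319 to 0.339 in those of shFto. After induction the lines did not overlap in the Mxd4 and Mxi1 shares or in the ratio of Max to its partners, while the Myc shares overlapped at MCE, with 25.8% and 26.9% in shScram against 27.9% and 26.0% in shFto. With Mxd3 and Mga in the sum, a choice made after seeing the data, the Max ratio was 0.153 to 0.182 in the shScram MCE and Diff libraries and 0.277 to 0.296 in those of shFto, and Mxd3 held 7.22% to 10.7% of the sum at MCE. The ratios concern RNA and not protein, and no test was run on them.

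**Figure D4:**
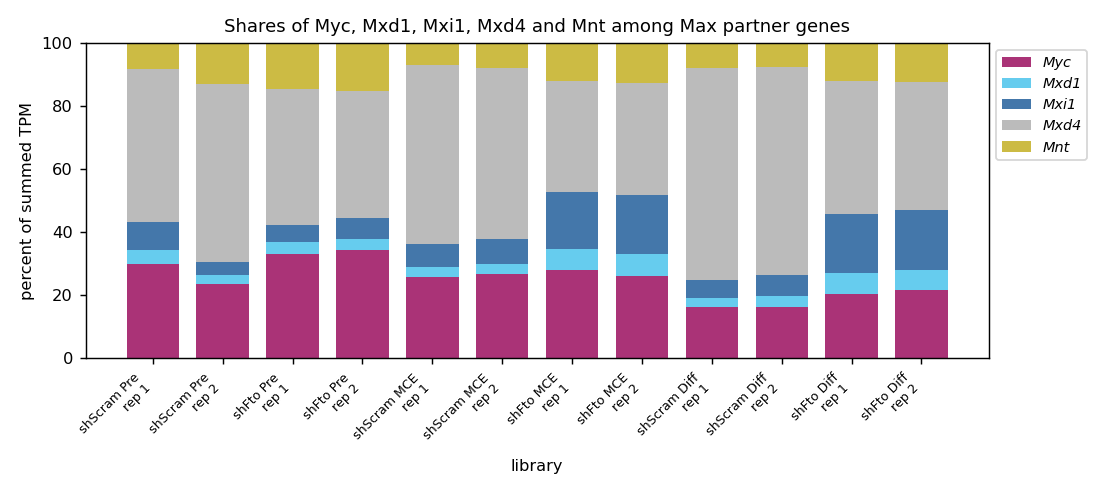
Percent of the summed TPM of the Max partners among the 10 genes (y axis) held by Myc, Mxd1, Mxi1, Mxd4 and Mnt in each of the 12 libraries (x axis). Mycn and Mycl are too low to be drawn. The Mxi1 band is widest in the shFto MCE and Diff libraries (18.1% to 18.8%) and the Mxd4 band in the shScram Diff libraries.

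Genes around the network were read from 7 lists of 87 genes, of which 85 were tested. In preadipocytes 7 were higher and 16 lower in shFto cells, at MCE 6 higher and 5 lower, and at Diff 10 higher and 5 lower. The shares were 8.24% and 18.8% at Pre (15.9% and 12.3% of all genes), 7.06% and 5.88% at MCE (10.5% and 7.26% of all genes), and 11.8% and 5.88% at Diff (11.9% and 9.31% of all genes). At MCE and Diff they thus lay near or under those of all genes. With a library left out, the number called ranged from 7 to 67, from 2 to 35 and from 8 to 41 at these stages, so the counts are read with that range.

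Of the other members of the Max and Mlx network (Mxd3, Mga, Mlx, Mlxip and Mlxipl), 4 of 5 were tested and 0 were called at any stage by limma with all 12 libraries, with 1, 0 and 1 higher and 0 lower at an unadjusted p under 0.05. Of all genes, 15.9% were higher and 12.3% lower at Pre, 10.5% and 7.26% at MCE, and 11.9% and 9.31% at Diff. Beside these shares, 0 of 4 says nothing particular about the members of this list. The median log2 fold changes of these 4 were 0.17, 0.17 and 0.08, and the preadipocyte median was 0.05 without shScram Pre replicate 1. Of 6 corepressor genes that Mxd proteins recruit, 0 were higher and 1 lower in preadipocytes, 2 higher at MCE and 1 higher at Diff. These were 16.7% lower beside 12.3% of all genes, 33.3% higher beside 10.5%, and 16.7% higher beside 11.9%, where 1 gene of 6 makes 16.7%. Sap30, a subunit of the Sin3 complex, went from 17.9 ± 1.4 (SD, n = 2) to 38.0 ± 3.2 TPM at MCE and from 7.62 ± 0.94 to 27.3 ± 3.9 TPM at Diff, with log2 fold changes of 1.04 and 1.71 (limma adjusted p = 0.00206 and 0.000106). Hdac1, a histone deacetylase, was higher at MCE by 0.47 (limma adjusted p = 0.0478) and Ncor1, a corepressor scaffold, was lower in preadipocytes, with a log2 fold change of -0.65 (limma adjusted p = 0.0204), and of -0.49 (limma adjusted p = 0.0278) without shScram Pre replicate 1.

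Of 19 Myc cofactors and regulators of Myc protein turnover, 3 were higher and 2 lower in preadipocytes, 2 higher and 1 lower at MCE, and 4 higher and 2 lower at Diff. The shares at Pre (15.8% and 10.5%) and MCE (10.5% and 5.26%) were near those of all genes, 15.9% and 12.3% at Pre and 10.5% and 7.26% at MCE, and at Diff they were 21.1% and 10.5%, beside 11.9% and 9.31%. Without shScram Pre replicate 1 the counts were 2 higher and 3 lower at Pre (16.1% and 12.9% of all genes), 6 and 3 at MCE (25.2% and 15.8%), and 5 and 5 at Diff (25.3% and 20.4%). Pim1, a kinase that phosphorylates Myc, went from 1.92 ± 0.38 to 31.7 ± 2.0 TPM at Diff (3.49 ± 0.25 on the log2 scale, limma adjusted p = 3.17e-05). Aurka, a mitotic kinase that also stabilises N-Myc, went from 10.7 ± 0.2 to 33.4 ± 0.1 TPM (1.56 on the log2 scale, limma adjusted p = 2.48e-05). Skp2, an F-box protein of Myc ubiquitination, was higher at MCE by 0.81 (limma adjusted p = 0.0127). Fbxw7, the F-box protein that marks Myc for degradation, and Usp28, a deubiquitinase, were lower at Diff, with log2 fold changes of -0.76 and -0.42 (limma adjusted p = 0.0167 and 0.046).

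Of 32 genes widely described as activated by Myc, 1 was higher and 7 lower in preadipocytes, 0 higher and 2 lower at MCE, and 1 higher and 2 lower at Diff. The share lower was 21.9% at Pre, beside 12.3% of all genes, and 6.25% at MCE and at Diff, beside 7.26% and 9.31%. The share higher was 3.12%, 0% and 3.12% at the successive stages, under the 15.9%, 10.5% and 11.9% of all genes. At an unadjusted p under 0.05 by limma, 7 were higher and 8 lower in preadipocytes, a nearly even split. At MCE and at Diff 1 was higher and 3 were lower by that measure. Their median log2 fold changes were 0.21, 0.04 and 0.03, against 0.08, 0.05 and 0.03 over all genes, and in preadipocytes the median differed in sign from the balance of calls and was -0.15 without shScram Pre replicate 1. Without that library 1 was higher and 10 lower at Pre, or 3.12% and 31.2% beside 16.1% and 12.9% of all genes. In the same fit 8 were higher and 5 lower at MCE, or 25.0% and 15.6% beside 25.2% and 15.8% of all genes, and 8 were higher and 7 lower at Diff, or 25.0% and 21.9% beside 25.3% and 20.4%, so the MCE and Diff shares were close to those of all genes and the Pre shares were not. Dkc1, which encodes dyskerin, was lower at all 3 stages, with 67.9 ± 1.8 against 26.1 ± 0.8 TPM in preadipocytes and log2 fold changes of -1.35, -0.99 and -0.75 (limma adjusted p = 0.00037, 0.00124 and 0.00437). Srm, the spermidine synthase gene, was higher in preadipocytes and at Diff, by 1.43 and 1.38 (limma adjusted p = 0.015 and 0.0167), and by 0.79 in preadipocytes without shScram Pre replicate 1.

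Of 5 genes described as repressed by Myc, 2 were higher and 1 lower in preadipocytes, 0 were called at MCE (1 lower at an unadjusted p under 0.05 by limma), and 1 was higher and 1 lower at Diff. The shares were 40.0% and 20.0% at Pre, beside 15.9% and 12.3% of all genes, and 20.0% and 20.0% at Diff, beside 11.9% and 9.31%, in a list of only 5. The fit without shScram Pre replicate 1 had 2 lower at MCE (40.0% beside 15.8% of all genes), and 3 higher and 1 lower at Diff (60.0% and 20.0% beside 25.3% and 20.4%). Gadd45a, a stress gene that slows growth, averaged 78.0 ± 6.3 TPM in shScram preadipocytes against 289 ± 5 TPM in those of shFto and was higher by 1.88 and 1.16 at Pre and Diff (limma adjusted p = 7e-05 and 0.000399). Ndrg1 was lower at both, with log2 fold changes of -1.65 and -1.53 (limma adjusted p = 0.000957 and 0.000786). Cdkn1a, the p21 cell cycle inhibitor, was higher in preadipocytes by 1.03 (limma adjusted p = 0.0115), and by 0.62 (limma adjusted p = 0.000254) without shScram Pre replicate 1.

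Of 11 genes of the Lin28 and let-7 axis and around Hmga2, 10 were tested, with 1 higher and 2 lower in preadipocytes, 1 higher at MCE and 0 called at Diff (1 higher at an unadjusted p under 0.05 by limma). The shares were 10.0% and 20.0% at Pre, beside 15.9% and 12.3% of all genes, and 10.0% higher at MCE, beside 10.5%. The median log2 fold change of the 10 was -0.18 at Pre, 0.23 at MCE and 0.10 at Diff. Leaving out shScram Pre replicate 1 gave a median of -0.05 at Pre. Igf2bp1, which encodes an RNA-binding protein, was higher in preadipocytes by 0.84 (limma adjusted p = 0.0412), while Igf2bp3 and Plag1 had log2 fold changes of -0.59 and -0.62 (limma adjusted p = 0.0284 and 0.0377). Without shScram Pre replicate 1 the values of Igf2bp1 and Plag1 were 0.37 and -0.43 and no longer calls (limma adjusted p = 0.0555 and 0.0984), and that of Igf2bp3 was -0.36 (limma adjusted p = 0.0371). Dis3l2, the nuclease that removes uridylated pre-let-7, was higher at MCE by 0.48 (limma adjusted p = 0.0488). Of 9 other high mobility group genes, 3 were lower in preadipocytes, 1 higher and 2 lower at MCE, and 3 higher at Diff. The shares were 33.3% lower at Pre, beside 12.3% of all genes, 11.1% and 22.2% at MCE, beside 10.5% and 7.26%, and 33.3% higher at Diff, beside 11.9%. In the fit without shScram Pre replicate 1 they were 5 higher and 2 lower at Diff, or 55.6% and 22.2% beside 25.3% and 20.4%. Hmgb2 went from 31.1 ± 0.8 to 67.7 ± 2.5 TPM at Diff, a log2 fold change of 1.10 (limma adjusted p = 0.000137). Hmgn3 was lower in preadipocytes and at MCE, with log2 fold changes of -1.15 and -0.74 (limma adjusted p = 0.00299 and 0.02), the former -0.88 (limma adjusted p = 0.000394) without that library.

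Markers of dividing cells moved with the stages as well. The 10 markers summed to 596 and 575 TPM in shScram Pre, 1194 and 1147 TPM in shScram MCE, and 335 and 310 TPM in shScram Diff. In shFto cells they summed to 529 and 520 TPM in Pre, 1285 and 1277 TPM in MCE, and 444 and 462 TPM in Diff, with Top2a the highest by its mean over all libraries. In preadipocytes 1 of the 10 was higher in shFto cells and 3 were lower, or 10.0% and 30.0% beside 15.9% and 12.3% of all genes, and their median was -0.24 on the log2 scale. At MCE 2 were higher and 1 lower, or 20.0% and 10.0% beside 10.5% and 7.26%, with a median of 0.13. At Diff 6 were higher and 0 lower, or 60.0% beside 11.9%, with a median of 0.68. The preadipocyte median was -0.28 without shScram Pre replicate 1. Among the 3 lower markers, Mki67 and Birc5 went from log2 fold changes of -0.78 and -0.68 to -0.35 and -0.35 without that library. Mcm5, the higher marker, went from 0.73 to 0.37, so the preadipocyte counts of these markers depend on that library. The part of these markers, and of the lower adipocyte markers, in the differences of Hmga2, Max, Mxd1, Mxi1 and Mxd4 was not tested.

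The genes with a pattern most like that of a member were found by Pearson's r of log2(TPM + 1) over the 12 libraries, among 10799 genes with a mean of at least 5 TPM, as a description. The points share libraries and stages. For Hmga2 they were Sgms2 (r = 0.972), Rpe (0.959) and Snhg4 (0.956). Sgms2, a sphingomyelin synthase gene, was at 12.3, 10.7 and 6.53 TPM on average in shScram cells and at 13.4, 12.9 and 13.7 TPM in shFto cells at Pre, MCE and Diff. For Myc they were Nop16 (r = 0.946), Nme2 (0.935) and Pak4 (0.935), and Nop16 is among the 32 genes described as activated by Myc. For Hmga1 they were Mrpl38 (r = 0.967), Nyap1 (0.957) and Plcd3 (0.945). The low value of shScram Pre replicate 1 takes part in the Myc and Hmga1 likenesses, with Nop16 at 16.3 TPM there and 31.0 TPM in replicate 2. Over the 11 other libraries, a choice made after seeing the data, r was 0.922 for Nop16, 0.891 for Nme2 and 0.896 for Pak4 with Myc, 0.940 for Mrpl38, 0.919 for Nyap1 and 0.872 for Plcd3 with Hmga1, and 0.958 to 0.982 for the Hmga2 genes.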

How the data were processed

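Reads had been trimmed with Trim Galore 0.6.5 and aligned with HISAT2 2.1.0 to the GRCm38 genome, and the TPM per gene that the authors deposited came from StringTie 2.1.4 and Ensembl release 102. The authors' methods describe fragmented and size-selected total RNA for rhein-treated cells. They do not describe the preparation of the shScram and shFto libraries separately. The authors' own tests used DESeq2 on counts, which were not analysed here, nor were the rhein-treated and immunoprecipitated libraries.

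The 10 genes and the lists were chosen with earlier results of these data known. Filtering at 1 TPM in 2 or more libraries left 15968 of 55487 genes. On log2(TPM + 1), limma 3.58.1 (R 4.3.3) fitted the 6 group means with trended eBayes and 6 residual degrees of freedom, two-sided, and p-values were adjusted over all genes tested. From each list and stage, the 2 highest and 2 lowest calls with a mean of at least 5 TPM could be named. Gene positions and 3' UTRs are from GENCODE M21, which held 99.4% of the identifiers, and promoters and miRNAs from RefSeq (GRCm38.p6). The fit was also run on simulated data with independent noise and no outlying library or GC trend. That run does not bear on shScram Pre replicate 1. Alternatives changed the pseudocount, filter, scaling, libraries fitted, spread, replicate block and libraries left out. The GC correction and sequence searches were chosen after seeing the data. Python 3.11.15, pandas 2.3.3, scipy 1.17.1 and Biopython 1.88 served the other steps.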

Additional observations from a re-analysis of the deposited data

Results flagged for a closer look

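A direct test of whether a stage step differed between the lines picked out 2 genes. Mxi1 rose more from Pre to MCE in shFto than in shScram cells, by 0.83 on the log2 scale (limma adjusted p = 0.0407), and the call was lost in 10 of 12 fits with a library left out. The MCE to Diff step of Hmga2 was higher in shFto cells by 1.27 (limma adjusted p = 0.0131), and the call was lost in 8 of 12 such fits, although the value stayed between 1.22 and 1.32. What sets these differences was not tested.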

How the results depend on the processing

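The 10 alternatives that left out no single library gave 720 values for the 72 member comparisons, of which 628 kept direction and side of the threshold, 38 lost a call, 35 gained one and 19 changed direction. The 2 libraries per group limit every call, the depth is unknown, and the cause of the changes below was not tested.

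The 2 preadipocyte calls became 1 with a pseudocount of 0.1 or no filter, and 0 in a fit of only the compared groups, with no trend and a robust spread, or with the replicate block. Fitting only the compared groups gave counts of 8 at MCE (4 otherwise), 0 and 4 for the shScram steps (4 and 1), 5 and 5 for the shFto steps (3 and 0), and 0 and 2 for the differences between lines (1 and 1). In the fits of only the compared groups 0.0% of all genes were called at Pre, so the count of 0 there says nothing particular about the members. The shares were 37.0% at MCE, 3.16% and 40.4% in the shScram steps, 50.1% and 54.4% in the shFto steps, and 1.5% and 16.9% in the differences between lines. The GC correction, chosen after seeing the data, gave 2 and 2 for the shScram steps, 1 for the shFto MCE to Diff step, and 2 and 2 for the differences between lines, where 42.4%, 34.9%, 36.3%, 8.06% and 5.41% of all genes were called. At Pre the correction called Max, Mxi1 and Hmga2 (limma adjusted p = 0.0302, 0.027 and 0.00637), with 28.8% of all genes called. Myc and Hmga1 were then no calls (limma adjusted p = 0.0794 and 0.0501). The shScram MCE to Diff count was 2 with median-ratio scaling and with quantile normalization (22.5% and 17.8% of all genes). The Pre to MCE difference count was 0 with a pseudocount of 0.1, quantile normalization (5.26% of all genes) or the replicate block, and 2 with a pseudocount of 5.

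For the 7 lists together, pooled after the values were seen, the counts of 23, 11 and 15 became 0, 38 and 36 when only the compared groups were fitted. In those fits 0.0%, 37.0% and 41.4% of all genes were called. The GC correction gave 23 at MCE and 23 at Diff (26.1% and 28.9% of all genes), and the replicate block 5 at MCE. Deviations of same-numbered libraries correlated between -0.29 and 0.17 over 15 pairs of groups, with 2 over 0.1, so no pairing by replicate number was visible. Whether same-numbered libraries shared a culture or batch cannot be told from this.

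With a library left out, the members called ranged from 0 to 4 at Pre, 2 to 7 at MCE and 3 to 7 at Diff. They ranged from 2 to 8 and 1 to 4 for the shScram steps, 2 to 5 and 0 to 3 for the shFto steps, and 0 to 8 and 0 to 2 for the differences between lines. The list counts ranged from 7 to 67, 2 to 35 and 8 to 41.

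None of the values that changed direction was a call to begin with, but 3 became calls in the new direction (limma). These were Mxd4 at Pre, 0.43 without shScram Pre replicate 2 (adjusted p = 0.00122), and, without shScram Pre replicate 1, Mnt in the shScram Pre to MCE step, -0.68 (adjusted p = 0.00118), and in the difference between lines from Pre to MCE, 0.56 (adjusted p = 0.0417). Between lines at Pre, Mxi1 was -0.0032 with quantile normalization and Mnt -0.071 with the GC correction. In the shScram Pre to MCE step, Mnt was -0.45 with the GC correction. In the shScram MCE to Diff step, Max was -0.12 and -0.018, and Mxd1 -0.027 and -0.12, with median-ratio scaling and quantile normalization. In the shFto Pre to MCE step, median-ratio scaling gave 0.070 for Mxd4, 0.071 for Mnt and 0.096 for Hmga2, and quantile normalization 0.054 for Mnt. In the shFto MCE to Diff step, Max was -0.019 and Mxd1 -0.043 with median-ratio scaling, and Mxd1 -0.095 with quantile normalization. For the differences between lines, Mnt was 0.40 from Pre to MCE with the GC correction. From MCE to Diff, median-ratio scaling gave 0.030 for Mxd4 and 0.017 for Mnt, and quantile normalization 0.022 for Mxd1 and 0.033 for Mnt.

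With a library left out, the values that could change direction ranged as follows. At Pre, Mxd4 ranged from -0.68 to 0.43 and Mnt from -0.11 to 1.38, with both Mxd4 limits and both Mnt limits set by the fits without a shScram Pre library. In the shScram Pre to MCE step Mnt ranged from -0.68 to 0.81 and Hmga1 from -0.14 to 1.69, and in the shFto Pre to MCE step Hmga2 from -0.27 to 0.044. For the differences between lines, Mnt ranged from -0.94 to 0.56 from Pre to MCE. From MCE to Diff, Max ranged from -0.054 to 0.12, Mxd4 from -0.12 to 0.039 and Mnt from -0.13 to 0.039.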
